A study of Rattus with 9 samples.

Results

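Vgf, the granins and the enzymes that cut prohormones were followed in thoracic dorsal root ganglia of rats after myocardial infarction. The group has 10 genes, taken by symbol from a table of 17378: Vgf, Scg2, Scg3, Scg5, Chga, Chgb, Pcsk1, Pcsk2, Pcsk1n and Cpe. Vgf stood among the genes with the smallest p in the comparison of infarcted with sham rats when the group was drawn up, and the others were added for their roles. The differences between infarcted and sham rats are therefore given as a description for all 10. No p-value of these differences is printed, and whether a gene passed a threshold is likewise only a description. All 10 passed the filter on low counts that left 11711 genes.

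The libraries came from poly-A RNA of ganglia of SD rats, taken 8 weeks after surgery: coronary ligation to cause infarction in 5 rats (MI), and a sham operation in the other 4. Each library was from a separate rat, per the labels. Whole ganglia were sequenced, in which glia, immune cells and vessels surround the sensory neurons. The deposited tables name the MI group CHF, and neither infarct size nor age is given in the sources used here. Counts per library totalled 6033134 to 6861355 in MI rats and 5656582 to 6313128 in sham rats, and RNA integrity numbers were 8.32 ± 0.217 (SD, n = 5) in MI rats, against 8.33 ± 0.0957 (SD, n = 4) in sham rats. Of 12 markers of sensory ganglion neurons, 9 were analysed here and all 9 were detected, with a summed level of 4318 to 5349 CPM (read counts scaled to library size with TMM factors) in MI and 4786 to 5309 CPM in sham rats. Markers of sympathetic neurons and chromaffin cells, which also store granins, summed to 6.99 to 11.8 CPM in MI and 5.73 to 8.91 CPM in sham rats over 9 of 10 genes, with Phox2a at 0 in every library.

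Neurons that release peptides make them as long precursors, which are sorted into dense-core vesicles at the trans-Golgi network. Granins aggregate there and help to load the vesicles, and many of them are precursors of peptides themselves. Prohormone convertases cut the precursors at pairs of basic residues, and a carboxypeptidase trims the residues left at the ends. Vgf is a granin-like precursor first known as a transcript induced by nerve growth factor, and in sensory ganglia its peptides have been studied in pain.

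Vgf was the lowest of the 10 genes when read count was divided by gene length, and the enzymes spanned a wide range. In RPKM (reads scaled to gene length and library size by the authors), the order of median levels over the 9 libraries was Cpe at 176, Scg3 at 157, Scg2 at 128, Scg5 at 125, Chgb at 72.1, Pcsk1n at 64.7, Chga at 63.7, Pcsk2 at 31.4, Pcsk1 at 16.3 and Vgf at 7.16. The ranges of neighbouring genes overlapped from Cpe down to Scg5 and again from Chgb down to Chga. Scg5 and Chgb, Chga and Pcsk2, Pcsk2 and Pcsk1, and Pcsk1 and Vgf did not overlap in any library. The median RPKM of Cpe was 24.6 times that of Vgf, and that of Pcsk2 was 4.39 times that of Vgf. The order was the same for the median over the sham rats only.

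**Figure D1:**
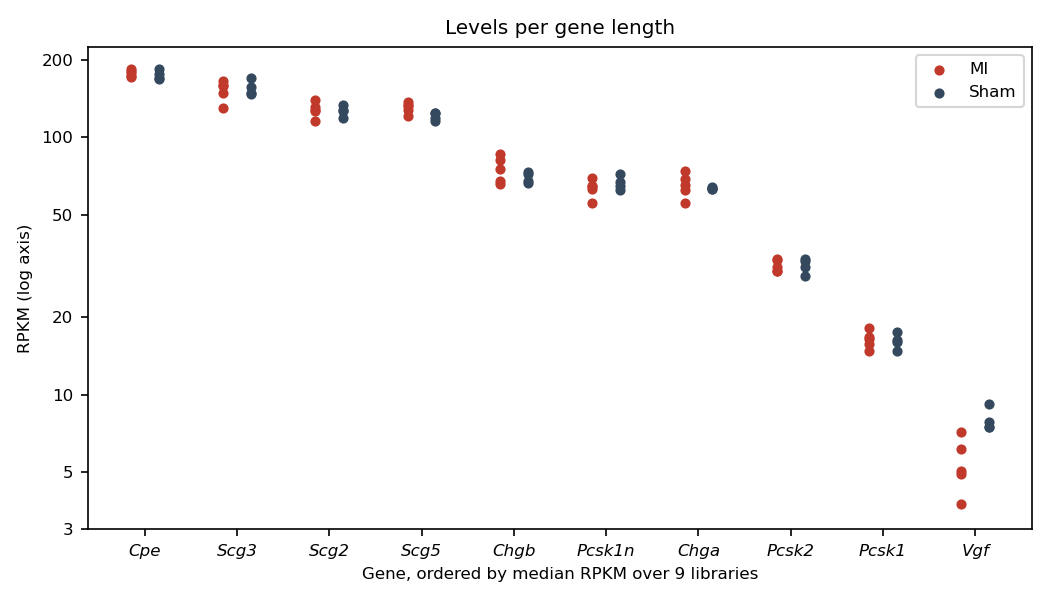
RPKM of the 10 genes (log axis) in 5 MI and 4 sham libraries, each point 1 rat, ordered by the median over 9 libraries. Cpe lies highest at a median of 176 and Vgf lowest at 7.16, and only Vgf has its MI points all below its sham points.

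Vgf was lower in every MI rat than in every sham rat. It stood at 26.7, 21.2, 31.3, 22.1 and 16.3 CPM in MI rats 1 to 5, against 32.8, 39.7, 34.0 and 32.8 CPM in sham rats 1 to 4. MI 5 was the lowest and Sham 2 the highest, and the gap between the groups was narrow, with MI 3 at 31.3 CPM just under Sham 1 at 32.8 CPM. The mean was 23.5 ± 5.70 CPM (SD, n = 5) in MI ganglia, against 34.8 ± 3.30 CPM (SD, n = 4) in sham ganglia. This is a log2 fold change of -0.57 (SE 0.19), or 0.675 times the sham level. Each SE is that of the difference between group means of log2 CPM, with a pooled SD. The absolute log2 fold change lay at percentile 98.8 of all tested genes, whose median was 0.07. Vgf was chosen on this same comparison, so a high percentile follows from that choice and is a description only. In bulk ganglia, fewer Vgf-expressing cells and less Vgf RNA per cell cannot be told apart.

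Vgf rested on few reads, 111 to 251 per library, and counting alone gives a coefficient of variation of 7.51% at the mean count of the 9 libraries. Its coefficient of variation between rats was 24.2% in MI and 9.47% in sham ganglia. The edgeR fit gave Vgf a biological coefficient of variation of 13.98%, against 4.92% to 8.00% in the other genes of the group. The 2 MI rats with the largest RNA yields, MI 4 at 8.20 µg and MI 5 at 5.52 µg, were among the 3 lowest for Vgf, and sham yields were 2.24 to 4.21 µg. The part of yield in the Vgf level was not tested.

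By the edgeR likelihood-ratio test with Benjamini-Hochberg adjustment, which the series' design text names, none of the 10 genes passed an adjusted p of 0.05, where 0.0171% of all tested genes were called. The quasi-likelihood test also called none of the 10, with 0% of all genes called. At an unadjusted p under 0.05 the likelihood-ratio test had Vgf alone (4.64% of all genes), and the quasi-likelihood test had Vgf and Scg5 (5.14%). Vgf passed without MI 3, the MI rat with the highest Vgf, where 0.0258% of genes were called and its log2 fold change was -0.70. It also passed with 1 common dispersion for all genes, where 0.598% were called. That setting was added after seeing the data, and it leaves out the larger dispersion of Vgf itself. Vgf passed in none of the rest of the 21 alternatives. Groups did not overlap for 1 of the 10 genes, Vgf, and for 1.74% of all tested genes, 0.905% with MI lower. Since Vgf was chosen on this comparison, these counts are a description.

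The authors' deposited table was used here for 8000 genes with p up to 0.712, 6 of the 10 among them. In the authors' deposited table Vgf had a fold change of 0.673 for MI over sham and passed an adjusted p of 0.05, as did 0.75% of the rows used, 0.325% with MI lower. Genes with a larger p are absent from the rows used, so these shares are not shares of all genes. The other 5 did not pass, with authors' deposited table folds of 0.975 for Scg3, 1.07 for Scg5, 1.02 for Chga, 1.07 for Chgb and 0.950 for Pcsk1n.

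**Figure D2:**
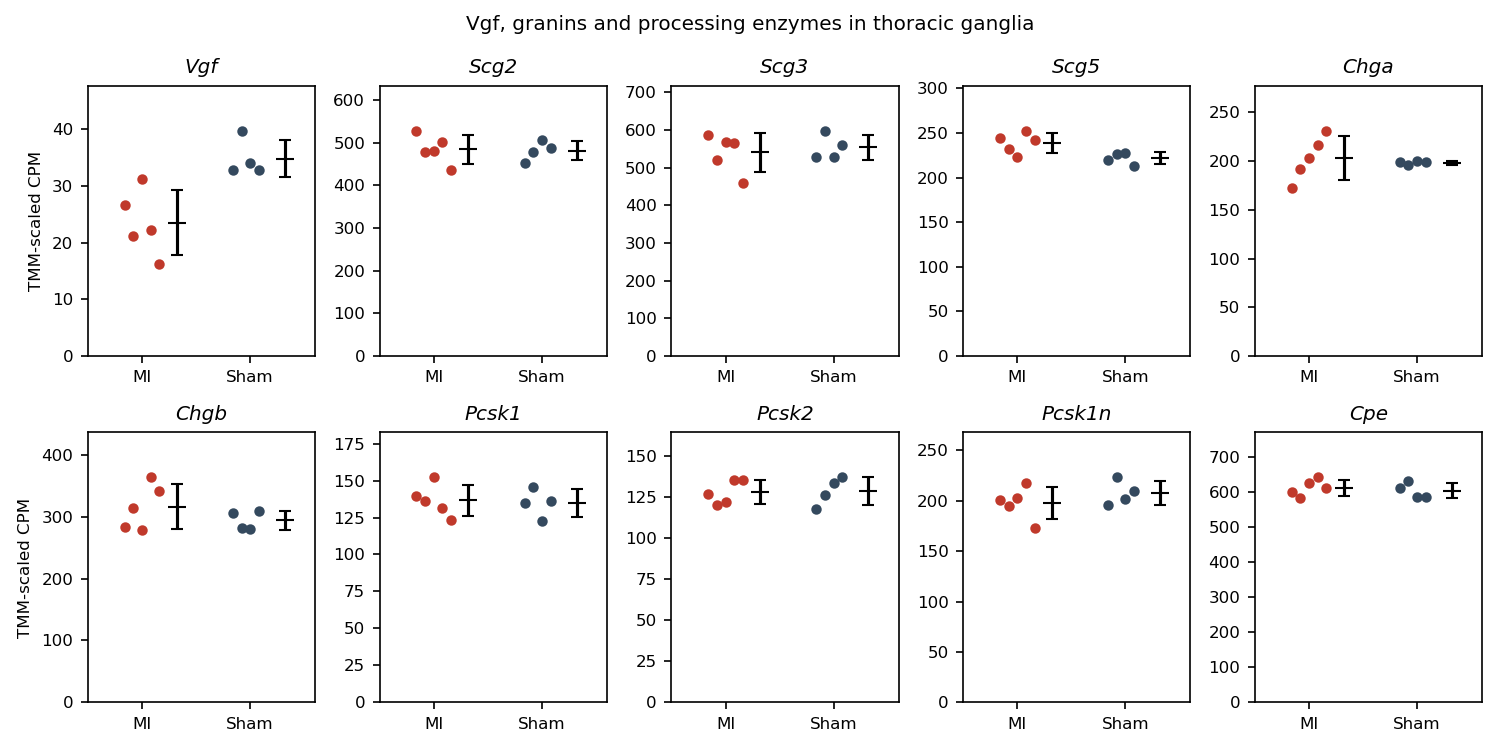
TMM-scaled CPM of each gene in 5 MI (left) and 4 sham (right) ganglia, each point 1 rat, with mean and SD beside the points and every axis starting at 0. Vgf spans 16.3 to 31.3 CPM in MI and 32.8 to 39.7 CPM in sham rats, and the groups overlap in the other 9 genes.

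Relative to neuronal transcripts, the separation of Vgf depended on the markers used. Vgf per 1000 CPM of 14 summed pan-neuronal markers was 0.675, 0.530, 0.798, 0.491 and 0.384 in MI rats 1 to 5, against 0.787, 1.01, 0.859 and 0.788 in sham rats 1 to 4. By this ratio MI 3 lay above Sham 1 and Sham 4, and the groups overlapped. The neurofilament genes Nefm, Nefl and Nefh made up most of this sum, at means of 12424, 9484 and 7600 CPM in MI rats. The ratio therefore weighs the other pan-neuronal markers little. Per 1000 CPM of the 9 sensory neuron markers the ratio was 3.77 to 6.35 in MI and 6.38 to 7.47 in sham rats, without overlap. Of these 9 sensory neuron markers, 2 were higher and 7 lower in MI, and of the 14 pan-neuronal markers 10 were higher and 4 lower. None passed either test, and at an unadjusted p under 0.05 each test had 0 of the sensory and 1 of the pan-neuronal markers. The share of all tested genes was 4.64% by the likelihood-ratio test and 5.14% by the quasi-likelihood test. The sensory neuron sum was 4849 ± 393 CPM (SD, n = 5) in MI ganglia, against 5095 ± 220.4 CPM (SD, n = 4) in sham ganglia. The pan-neuronal sum was 41243 ± 2500 CPM (SD, n = 5) in MI ganglia, against 40508 ± 1336 CPM (SD, n = 4) in sham rats.

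The secretogranins Scg2 and Scg3 had nearly equal group means. Scg2, the precursor of secretoneurin, stood at 528, 478, 481, 502 and 437 CPM in MI rats 1 to 5, against 453, 477, 507 and 487 CPM in sham rats 1 to 4, with a log2 fold change of 0.01 (SE 0.06). Scg3, which binds chromogranin A and cholesterol-rich vesicle membrane, stood at 587, 521, 569, 565 and 460 CPM in MI rats and at 528, 597, 529 and 560 CPM in sham rats, with log2 -0.04 (SE 0.08). In both genes the groups overlapped, and MI 5 was the lowest of the 9 rats.

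Scg5, the chaperone of the Pcsk2 enzyme, was the gene nearest to separation after Vgf. It stood at 244, 232, 223, 252 and 242 CPM in MI rats 1 to 5, against 220, 227, 228 and 213 CPM in sham rats 1 to 4. Only MI 3 lay within the sham range, and the log2 fold change was 0.11 (SE 0.04), or 7.61% higher in MI. It did not pass the adjusted threshold.

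Chga and Chgb, the chromogranins, had larger coefficients of variation in MI rats, at 11.02% and 11.6%, than in sham rats, at 0.940% and 5.23%. The coefficient of variation was larger in MI rats in 8 of the 10 genes, all but Pcsk2 and Cpe, and the difference in spread was not tested. The share of all genes with a wider spread in MI was not computed, so this count has no background. The SD of summed markers was also larger in MI for pan-neuronal, sensory neuron, sympathetic, Schwann, mural and endothelial markers. It was smaller in MI for satellite glia and macrophage markers. Chga stood at 173, 192, 203, 217 and 231 CPM in MI rats 1 to 5 and at 199, 196, 200 and 199 CPM in sham rats 1 to 4. The 4 sham values of Chga lay closer together than the 2.82% that counting alone gives, and MI rats lay on both sides of them, 2 below and 3 above. Chgb stood at 283, 314, 278, 363 and 341 CPM in MI rats and at 305, 282, 280 and 309 CPM in sham rats. The log2 fold changes were 0.03 (SE 0.08) for Chga and 0.10 (SE 0.09) for Chgb. The ratio of Chgb to Chga in RPKM was 1.02 to 1.24 in MI and 1.04 to 1.150 in sham ganglia.

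The group means of both convertases differed by less than their SE. Pcsk1 stood at 140, 136, 152, 132 and 123 CPM in MI rats 1 to 5, against 135, 146, 123 and 136 CPM in sham rats 1 to 4 (log2 0.02, SE 0.07). Pcsk2 stood at 127, 120, 122, 136 and 135 CPM in MI rats, against 118, 126, 134 and 137 CPM in sham rats (log2 -0.01, SE 0.06). The groups overlapped throughout in both genes. The RPKM ratio of Pcsk1 to Pcsk2 was 0.519 ± 0.0642 (SD, n = 5) in MI ganglia, against 0.511 ± 0.0559 (SD, n = 4) in sham ganglia.

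Each convertase has a binding partner encoded in the group. Pcsk1n encodes proSAAS, an inhibitor of the Pcsk1 enzyme, and stood at 201, 194, 202, 217 and 173 CPM in MI rats 1 to 5, against 196, 223, 201 and 210 CPM in sham rats 1 to 4 (log2 -0.07, SE 0.07). In RPKM, Pcsk1n was 3.57 to 4.43 times Pcsk1 in MI and 3.91 to 4.39 times in sham ganglia. Scg5 was 3.95 to 4.26 times Pcsk2 in MI and 3.43 to 4.13 times in sham ganglia. Both ratios overlapped between the groups. Cpe, the carboxypeptidase that trims the cut ends, stood at 600, 584, 625, 642 and 611 CPM in MI rats and 612, 632, 587 and 586 CPM in sham rats (log2 0.02, SE 0.04).

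Across the group, 6 genes had a higher and 4 a lower mean in MI by the fitted log2 fold change, with a median of 0.01, where 50.8% of all tested genes were higher and their median was 0.00. The 10 genes summed to 2882 ± 109.9 CPM (SD, n = 5) in MI ganglia, against 2859 ± 65.4 CPM (SD, n = 4) in sham ganglia. Vgf per 1000 CPM of the other 9 was 9.27, 7.64, 10.9, 7.32 and 5.91 in MI rats 1 to 5, against 11.9, 13.7, 12.2 and 11.6 in sham rats 1 to 4. Set against Pcsk1, its nearest neighbour in RPKM, Vgf was 0.253 to 0.393 times Pcsk1 in MI and 0.460 to 0.529 times in sham ganglia. Both ratios kept the MI rats below the sham rats, as the Vgf level itself did, and they rest on the same Vgf reads.

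Within groups, Scg3 and Pcsk1 had the highest correlations with Vgf from rat to rat among the 10 genes, and no pair of them passed adjustment. Values in log2 CPM were centred on their group mean, so the MI to sham difference did not enter, and all 45 pairs of the 10 genes were compared over 9 rats. Scg3 and Vgf had r = 0.86 (exact permutation p = 0.00374, adjusted p = 0.0759; rho = 0.82, exact p = 0.0108, adjusted p = 0.242). Pcsk1 and Vgf had r = 0.84 (exact permutation p = 0.00506, adjusted p = 0.0759; rho = 0.72, exact p = 0.0369, adjusted p = 0.332). Chgb and Vgf had r = -0.75 (exact permutation p = 0.0179, adjusted p = 0.163; rho = -0.75, exact p = 0.0255, adjusted p = 0.287). All tests are two-sided. The permutations ran over every order of the 9 rats, across both groups, and centred values need not be interchangeable between groups. The permutation p-values are therefore approximate. Without MI 3 and MI 5, the rats farthest from the median of Vgf, r was 0.81 for Scg3, 0.57 for Pcsk1 and -0.65 for Chgb.

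The pair with the smallest p was Scg3 and Pcsk1n, with r = 0.90 (exact permutation p = 0.00117, adjusted p = 0.0527; rho = 0.85, exact p = 0.00607, adjusted p = 0.242). Without the 2 rats farthest from the median of Scg3, MI 5 and MI 1, it was 0.89. Of the 45 pairs, 27 had r above 0 and 7 had an unadjusted p under 0.05, but 0 passed after Benjamini-Hochberg adjustment, by r or by rho. The same shares were not computed for pairs of other genes, so these counts have no background. The 2 chromogranins had r = 0.67 with each other (exact permutation p = 0.0433, adjusted p = 0.278; rho = 0.58, exact p = 0.108, adjusted p = 0.398), and 0.55 without MI 1 and MI 5.

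**Figure D3:**
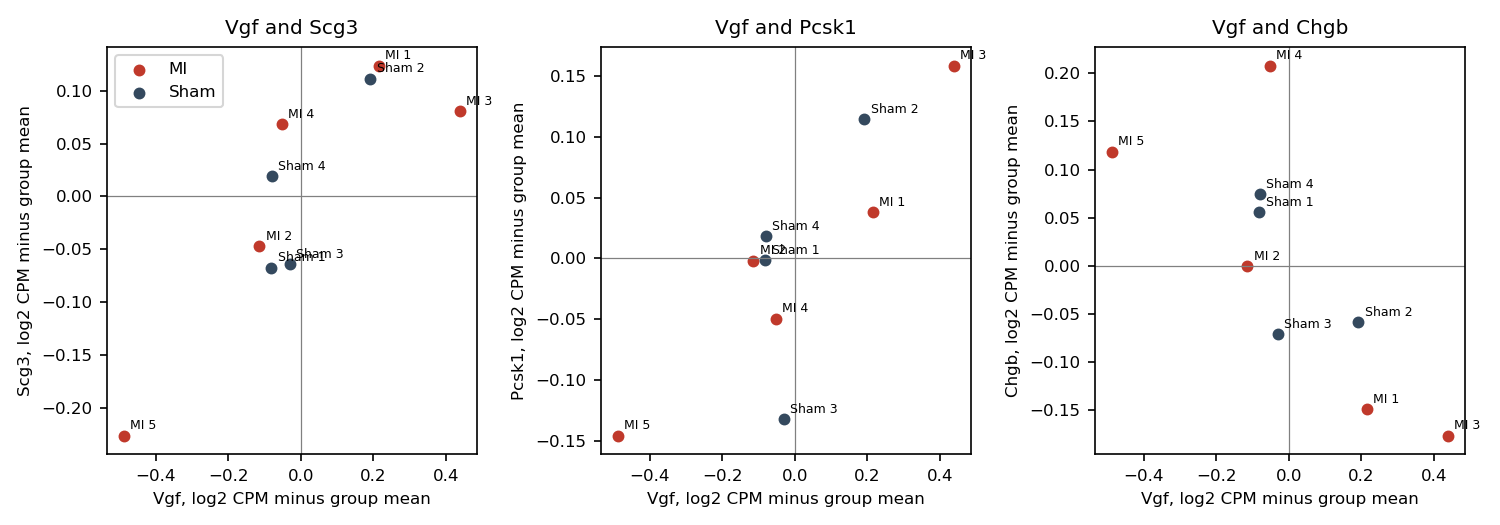
Deviation of Scg3, Pcsk1 and Chgb from their group means (y, log2 CPM) against that of Vgf (x, log2 CPM) in 5 MI and 4 sham rats. The correlation with Vgf is r = 0.86 for Scg3, 0.84 for Pcsk1 and -0.75 for Chgb, none past adjustment, with MI 5 and MI 3 at the ends of the Vgf axis.

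Over the same 9 rats, and again on values centred within groups, Vgf was compared with 9146 genes of at least 10 CPM. The most like were Emc6, a subunit of the endoplasmic reticulum membrane complex (r = 0.94), Otof, the calcium sensor otoferlin (0.94), and Hook1, a dynein adaptor (0.94). Gak, a kinase of clathrin uncoating (0.93), Celf4, a neuronal RNA-binding protein (0.93), and Epn2, an endocytic epsin (0.93), came next. Without centring, r was 0.41 for Emc6, 0.88 for Otof, 0.55 for Hook1, 0.82 for Gak, 0.87 for Celf4 and 0.92 for Epn2. The least like were Ift27, of intraflagellar transport (-0.95), and Loxl3, a lysyl oxidase (-0.95). For Pcsk1 the most like were Cdkl1 (0.96) and Ebna1bp2 (0.95). With 9 rats and this many genes these values only describe the libraries, which share depth and scaling within each rat.

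Other enzymes of precursor processing showed no call. Of 18, 17 were tested, 8 higher and 9 lower in MI, with a median log2 of 0.00, and 0 passed the likelihood-ratio or the quasi-likelihood test in either direction, with 0 at an unadjusted p under 0.05 by either test. The 3 with the smallest p were Tpst1, a tyrosine sulfotransferase of secreted proteins, with log2 0.15 (SE 0.09), Cpd, a carboxypeptidase of the trans-Golgi network, with -0.08 (SE 0.05), and Tpst2 with -0.11 (SE 0.07).

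Genes of dense-core vesicle formation and release gave no call. Of 32, 28 were tested, 8 higher and 20 lower, with a median log2 of -0.04, and 0 passed either test. At an unadjusted p under 0.05 the likelihood-ratio test had 1 and the quasi-likelihood test 2, against 4.64% and 5.14% of all tested genes. Sv2a, a vesicle glycoprotein, stood at 37.5, 47.3, 33.3, 52.8 and 42.1 CPM in MI rats 1 to 5, against 47.9, 56.4, 55.0 and 49.2 CPM in sham rats 1 to 4 (log2 -0.29, SE 0.14). The MI 4 value lay inside the sham range and the other MI values below it. Ptprn, a tyrosine phosphatase-like protein of the vesicle membrane, had log2 -0.12 (SE 0.06), and Hid1, needed for vesicle maturation, had -0.13 (SE 0.07).

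Of 22 precursors of peptides that enter this pathway, 13 passed the filter on low counts and none was called. Of these 13, 6 were higher and 7 lower in MI, with a median log2 of -0.04, and 0 passed either test, with 0 at an unadjusted p under 0.05 by either. Nts, the neurotensin precursor, averaged 2.80 ± 0.768 CPM (SD, n = 5) in MI ganglia, against 2.01 ± 0.688 CPM (SD, n = 4) in sham ganglia. Nts rested on only 8 to 22 reads per library, and the groups overlapped. Gal, the galanin precursor, averaged 8.20 ± 1.26 CPM (SD, n = 5) in MI ganglia, against 10.1 ± 3.09 CPM (SD, n = 4) in sham ganglia. Adcyap1, the precursor of a pituitary adenylate cyclase-activating peptide, averaged 29.5 ± 5.06 CPM (SD, n = 5) in MI ganglia, against 33.7 ± 4.98 CPM (SD, n = 4) in sham ganglia.

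Of 4 genes for receptors reported to bind peptides cut from Vgf or proSAAS, 3 were higher and 1 lower in MI. Among all tested genes, 4.64% had an unadjusted p under 0.05 by the likelihood-ratio test and 5.14% by the quasi-likelihood test. Of the 4, 0 passed either test, and each test had 1 gene under that unadjusted p. That gene was C3ar1, a complement receptor that also binds a Vgf peptide, at 1.61, 3.12, 2.67, 2.66 and 2.05 CPM in MI rats 1 to 5, against 1.07, 0.949, 2.05 and 1.75 CPM in sham rats 1 to 4 (log2 0.71, SE 0.25, edgeR adjusted p = 1.00). It rested on 6 to 19 reads per library, and the groups overlapped. C3ar1 is also made by macrophages, of whose 10 markers 8 were higher and 2 lower in MI, with a median log2 of 0.17. None of the 10 passed either test, and 2 had an unadjusted p under 0.05 by each, against 4.64% and 5.14% of all tested genes. The macrophage markers summed to 358 ± 46.5 CPM (SD, n = 5) in MI ganglia, against 322 ± 61.5 CPM (SD, n = 4) in sham ganglia, with overlapping ranges of 282 to 393 and 269 to 408 CPM. Their part in the C3ar1 values was not tested. C1qbp had log2 0.02 (SE 0.03) and Gpr171 -0.07 (SE 0.38).

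Genes that act upstream of Vgf in neurotrophin and cyclic AMP signalling gave no call. Of 15, 12 were tested, 5 higher and 7 lower in MI, with a median log2 of -0.05, and 0 passed either test. At an unadjusted p under 0.05 the likelihood-ratio test had 1 and the quasi-likelihood test 2, against 4.64% and 5.14% of all tested genes. Ntrk2, the receptor of brain-derived neurotrophic factor, stood at 302, 277, 269, 287 and 278 CPM in MI rats 1 to 5, against 309, 338, 326 and 285 CPM in sham rats 1 to 4 (log2 -0.15, SE 0.06). Crtc2, a coactivator of cyclic AMP response, had log2 -0.21 (SE 0.09).

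Genes induced by activity or nerve injury, a setting in which Vgf is also known to be induced, were likewise without a call. Of 13, 11 were tested, 3 higher and 8 lower in MI, with a median log2 of -0.02, and 0 passed either test, with 0 at an unadjusted p under 0.05 by either. Nr4a1, an immediate early nuclear receptor, had log2 -0.11 (SE 0.10), Fos -0.37 (SE 0.55) and Fosb -0.28 (SE 0.59). The spread between rats was wide for Fos, at 19.5 ± 10.97 CPM (SD, n = 5) in MI ganglia, against 25.1 ± 7.87 CPM (SD, n = 4) in sham ganglia.

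**Figure D4:**
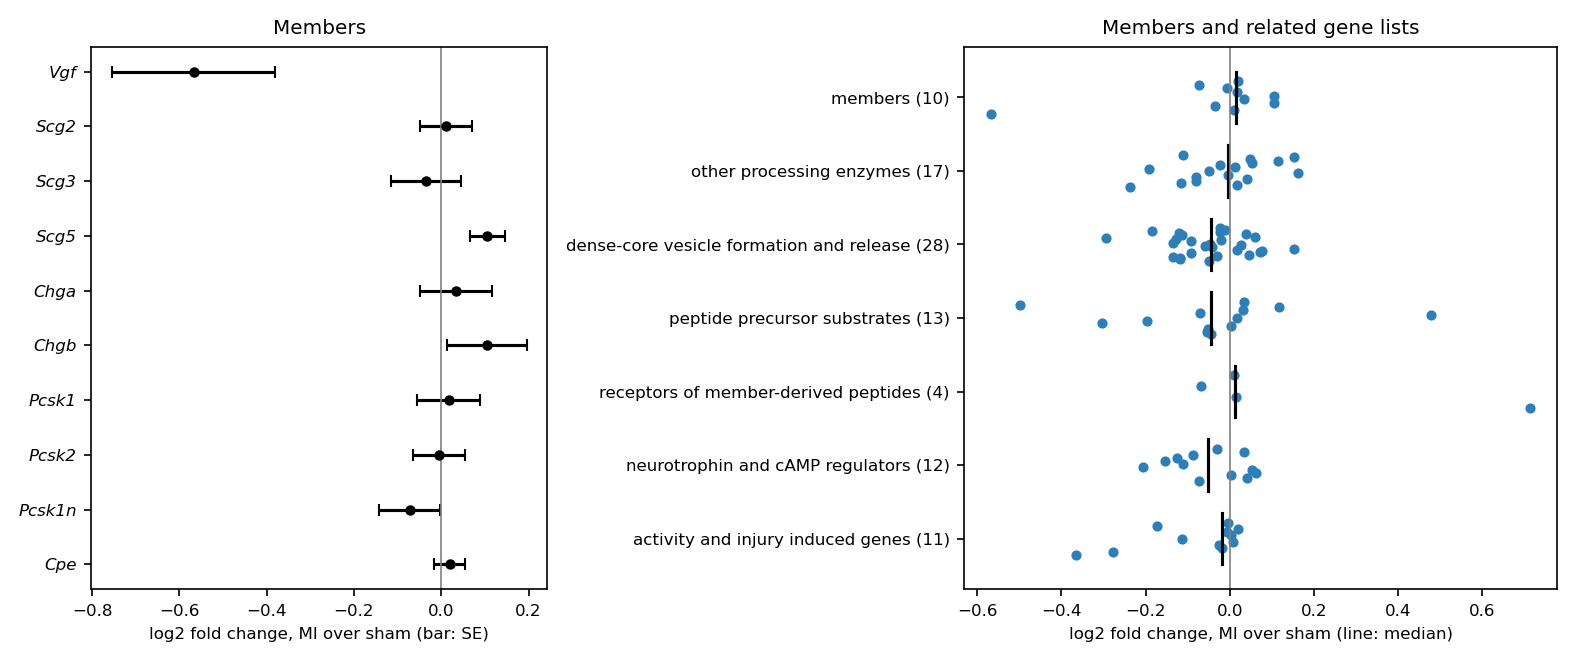
Log2 fold change of MI over sham for the 10 genes with their SE (left), and for the same genes and each tested gene of 6 related lists (right, number tested in brackets, black line the median). Vgf lies at -0.57 and the other 9 genes between -0.07 and 0.11.

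Markers of other cells of the ganglion gave the following background to these values. Mural cell markers summed to 301 ± 50.8 CPM (SD, n = 5) in MI ganglia, against 235 ± 25.8 CPM (SD, n = 4) in sham rats over 9 genes. Of these 9, 7 were higher and 3 of them did not overlap between groups, as in 1.74% of all tested genes in either direction. At an unadjusted p under 0.05 the likelihood-ratio test had 5 and the quasi-likelihood test 4, against 4.64% and 5.14% of all tested genes. Schwann cell markers summed to 12097 ± 2175 CPM (SD, n = 5) in MI ganglia, against 13388 ± 1336 CPM (SD, n = 4) in sham rats, with all 9 lower. MI 5, the rat with the lowest Vgf, went the other way, with the highest Schwann cell sum of all rats at 15769 CPM. MI 5 also had the highest mural cell sum, at 369 CPM, and the lowest sensory neuron sum, at 4318 CPM. Satellite glia markers summed to 4993 ± 292 CPM (SD, n = 5) in MI ganglia, against 4895 ± 376 CPM (SD, n = 4) in sham rats, with 3 of 8 higher, and endothelial markers to 322 ± 55.3 CPM (SD, n = 5) in MI ganglia, against 308 ± 47.2 CPM (SD, n = 4) in sham ganglia, with 6 of 8 higher. At an unadjusted p under 0.05 each test had 1 Schwann cell and 1 satellite glia marker, and the likelihood-ratio test alone had 1 endothelial marker. None of the markers of these cell types passed either test after adjustment. The part of these cell types in the Vgf difference was not tested.

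**Figure D5:**
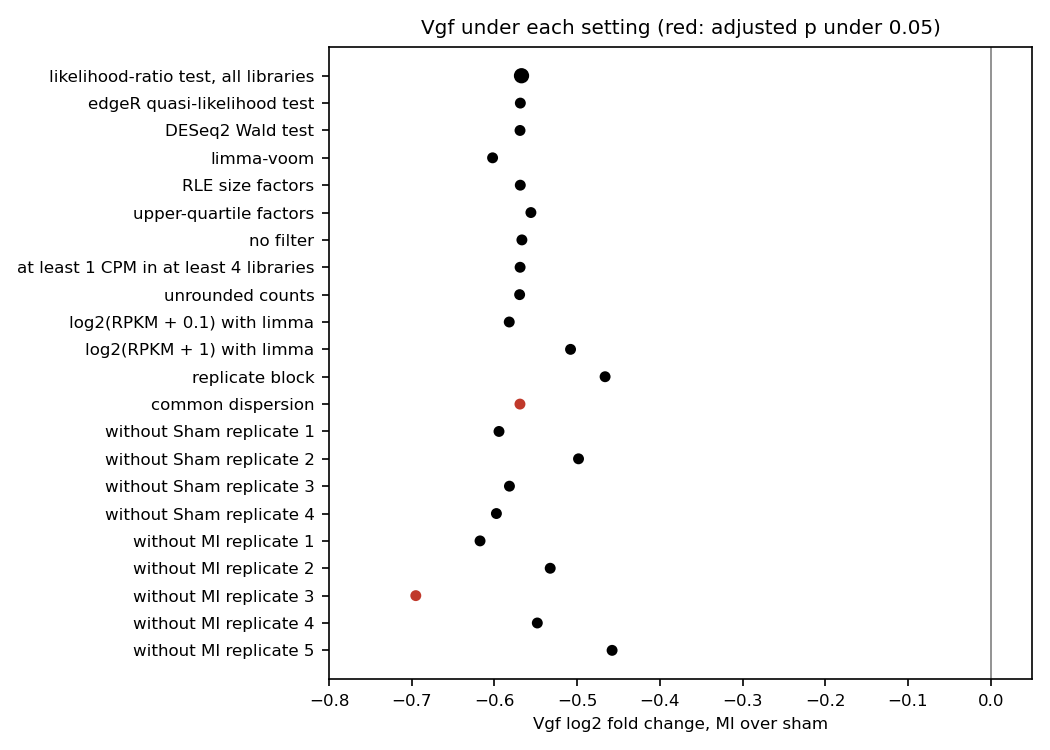
Vgf log2 fold change of MI over sham under the likelihood-ratio fit of all 9 libraries (large point), 12 other settings and 9 fits that each leave out 1 library. Values run from -0.70 without MI 3 to -0.46 without MI 5, and red marks the 2 settings in which Vgf passed the threshold.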

How the data were processed

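Poly-A RNA of 9 rat ganglia was sequenced; per the series' design text, the authors used bcl2fastq 2.16.0.10, cutadapt, STAR 2.3.0 on rn6 and Partek 6.6 annotations. The deposited counts are whole reads per gene, rounded by the authors from deposited estimated counts. The deposited RPKM values are the authors' own. Per the file headers, their test table lists the fold change as a ratio together with p-values; its 9 columns of scaled values were not used. The deposited sample sheets give reads, the percent of reads between genes, RNA yield and the RNA integrity number, a score.

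Counts were fitted in R 4.3.3 with edgeR 4.0.16: filterByExpr (11711 of 17378 genes), TMM scaling, tagwise dispersions, likelihood-ratio test, Benjamini-Hochberg adjustment over all tested genes, threshold 0.05. Log2 CPM used a prior count of 2. Alternatives included the quasi-likelihood test, DESeq2 1.42.0, limma 3.58.1 on voom and log2(RPKM + 0.1) or (RPKM + 1) values, other scalings and filters, a replicate block and fits without each library. Members, lists and tests were chosen with earlier results of these data known. Named genes are the members, up to 3 per related list with the smallest p, and the genes most and least correlated with Vgf (6 and 2) or most with Pcsk1 (2) at 10 CPM or more. A gene that the rule named is not reported here. Of the listed symbols 8 were not analysed here. The sources used here do not state strand use, so reads of overlapping genes may mix. No sequence is shown. Correlations used every permutation of the centred values over 9 rats, not kept within groups, so their p-values are approximate. Precision is limited by 4 to 5 rats a group.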

Additional observations from a re-analysis of the deposited data

Results flagged for a closer look

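Each value below stood far from the rest of its own group, judged by the gap from the highest or lowest rat to its neighbour. Of 90 groups examined, 3 gave such a value, where chance gives 4.5. C1qbp stood at 74.61 CPM in MI 3, against 69.08 to 70.63 CPM in the other MI rats. The summed markers of sympathetic and chromaffin cells were 11.78 CPM in MI 3, against 6.99 to 7.63 CPM in the other MI rats. The summed markers of satellite glia were 5456 CPM in Sham 1, against 4662 to 4766 CPM in the other sham rats. No value of the 10 genes themselves stood apart in this way.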

How the results depend on the processing

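Vgf was lower in MI under all 21 alternatives, with a log2 fold change from -0.70 (without MI 3) to -0.46 (without MI 5). Scg5, Chgb, Pcsk1n and Cpe kept their sign in all 21, while Scg2 and Scg3 kept it in 18, Chga and Pcsk1 in 19 and Pcsk2 in 14, all with values near 0. The count of the 10 genes past the threshold, 0 by the likelihood-ratio test of all 9 libraries, was 0 to 1 over the fits without 1 library (1 without MI 3) and 1 with a common dispersion, an alternative added after seeing the data. The count over all genes, 2 by that test, was 0 by the quasi-likelihood test, limma-voom and both RPKM fits, 4 with upper-quartile factors, 6 with no filter and 70 with a common dispersion, and it was 2 to 8 over the fits without 1 library, with 8 without Sham 3 or MI 1, 6 without MI 5 and 4 without MI 4; the cause was not tested. With the replicate number as a block it was 12, none of them among the 10 genes, and Vgf had log2 -0.47; deviations of same-numbered rats correlated at -0.13, -0.14, 0.04 and 0.09, so the numbers were not treated as pairs. The correlation of Vgf with Scg5 changed sign between fits without 1 library, from -0.40 to 0.19. With 111 to 251 reads per library, depth limits Vgf more than the other 9 genes.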
